A study of Homo sapiens with 15 samples.

Results

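The integrin and laminin genes were examined in xenograft tumors grown from HCT116, a human colon cancer cell line. Members were genes with a symbol of ITGA or ITGB plus a number, or of LAMA, LAMB or LAMC plus a number, found through the transcript record of each array probe. This gave 30 genes, 19 integrin and 11 laminin, of the 19483 genes named on the array. They were read by 41 of the 34127 probes on the array. HCT116 cells had been transfected and grown as tumors in athymic nude mice, which lack a functioning T cell system and still hold mouse stroma and blood vessels. There were 5 groups of 3 tumors each, with 1 one-color array per tumor. They carried wild-type MOAP-1, the pCDNA3 vector alone, MOAP-1 with lysine changed to arginine in the K264R form, the same change in the K278R form, or HA-RASSF1A. MOAP-1 carries a BH3-like motif and activates the death protein Bax, and RASSF1A is a tumor suppressor that binds it. The transfections for HCT116 xenografts were transient, and the labels do not say whether the 3 tumors of a construct came from separate transfections, so p-values measure the spread between these tumors.

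Integrins are membrane receptors made of 1 alpha and 1 beta chain, and the alpha chain largely sets which matrix protein is bound. Laminins are trimers of an alpha, a beta and a gamma chain that form the sheet of the basement membrane on which epithelial cells rest. In colon epithelium the integrin of ITGA6 and ITGB4 anchors cells to laminin through hemidesmosomes, and the laminin that holds the LAMA3 and LAMB3 chains is its main ligand.

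Every level below is the log2 of the processed spot signal minus the log2 of the 75th percentile signal of the same array, so 0 is that percentile and a difference of 1 is a 2-fold change. A probe was kept for testing where some construct had all 3 of its tumors well above background at that probe, which left 34 member probes of 27 genes, 18 integrin and 16 laminin, among 30585 kept probes. The 7 other member probes were both dim ITGA4 probes, 1 LAMA1 probe, both LAMB4 probes and the single probes of ITGA8 and ITGB6, so ITGA8, ITGB6 and LAMB4 were not tested. A probe was called at a limma adjusted p below 0.05 over all kept probes and a change of at least 1.5-fold.

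As a check of the labels, the MOAP1 probe was higher than in vector tumors by 0.86 on the log2 scale with MOAP-1 (limma adjusted p = 0.000842), by 0.55 with K264R and by 0.74 with K278R. The RASSF1 probe was not higher in the tumors labelled RASSF1A, where its log2 change was -0.12 ± 0.10 (SE, limma adjusted p = 0.671). For both the MOAP1 and the RASSF1 probe, the place within the gene relative to the transfected construct is not known here. Of 15 colon epithelial marker genes, 14 stood well above background on every array, and CDH17 on none. The 75th percentile signal ran from 631 to 768 in vector arrays, from 613 to 818 in RASSF1A arrays, from 800 to 1022 in MOAP-1 arrays, from 1176 to 1402 in K264R arrays and from 496 to 1152 in K278R arrays. The vector arrays lay on 1 slide, shared only with tumor 3 labelled RASSF1A, and the K264R arrays on a slide of their own, so that for K264R against vector slide and construct cannot be told apart. No slide held both MOAP-1 and vector arrays, or both K278R and vector arrays.

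In tumors with wild-type MOAP-1, the member that stood highest above vector was LAMA2, the alpha chain of the laminin of muscle and nerve basement membranes, which rose 2.13-fold. Smaller rises were called for the dimmer probe of ITGA6, the laminin-binding partner of ITGB4, and for the collagen-binding chain ITGA1. The brighter ITGA6 probe changed by -0.30 and was not called. Also called higher was 1 probe of LAMA4, an alpha chain of vessel walls. ITGB7, a beta chain best known from leukocytes, was lower. In all, 5 of the 34 member probes were called (14.7%), against 16.6% of all kept probes in this comparison. Of these, 4 were higher, where 9.92% of all kept probes were called higher, and 1 was lower, where 6.69% were. The share of members called was thus close to that of the whole array, and their median log2 change was -0.0017 against 0.018 over all kept probes. Leaving out MOAP-1 tumor 1, MOAP-1 tumor 2 or vector tumor 1 gave 3 calls each, among 4907, 4326 and 4620 on the whole array. Without MOAP-1 tumor 2, 1 of them was ITGA9 (-0.65), which was not called with all tumors. In bulk tumor RNA, fewer cells of a type and less RNA per cell cannot be told apart.

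**Figure D1:**
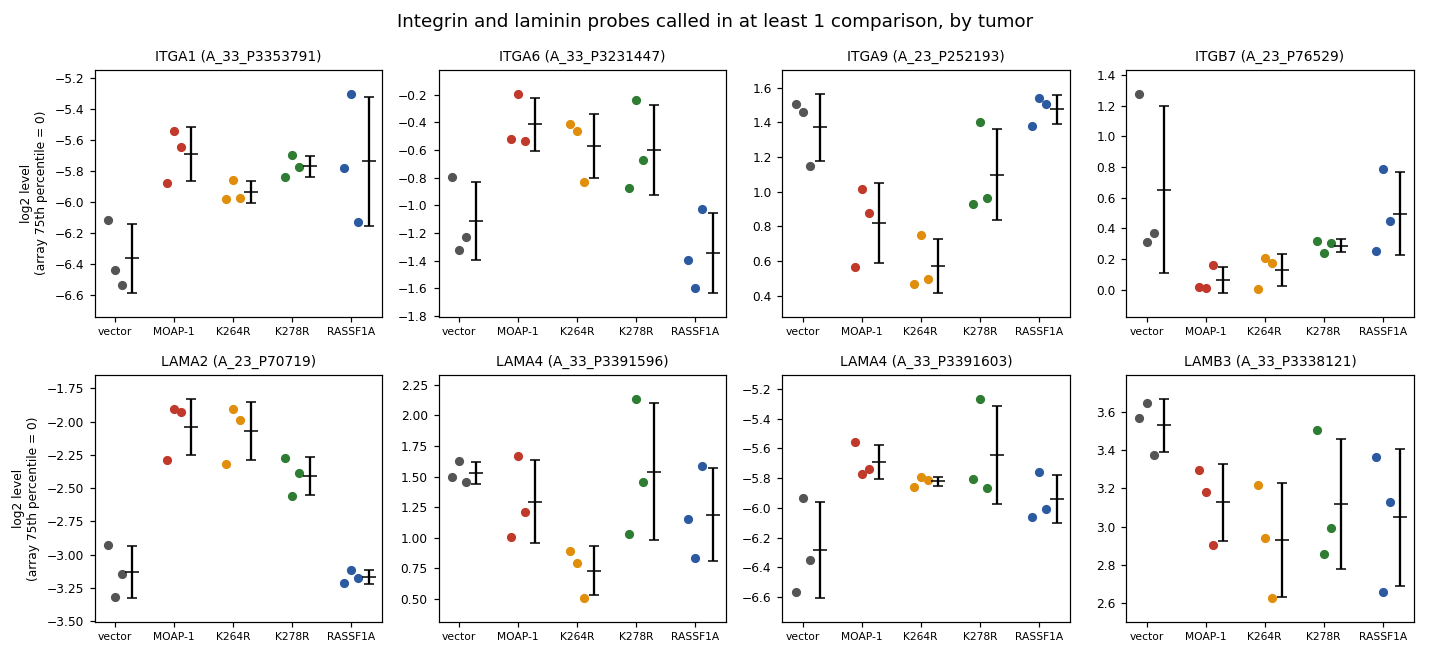
Levels of the 8 member probes called in at least 1 comparison, on the log2 scale with the 75th percentile of each array at 0, 1 point per tumor, with the mean and SD of each construct beside the points (n = 3). LAMA2 was above all vector tumors in every tumor with MOAP-1, K264R or K278R, and 1 vector tumor stood apart at 1.28 for ITGB7.

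LAMA2 (probe A_23_P70719) had levels of -2.93, -3.32 and -3.15 in vector tumors 1 to 3. It stood at -2.29, -1.91 and -1.93 with MOAP-1, at -2.32, -1.90 and -1.98 with K264R, and at -2.27, -2.56 and -2.39 with K278R. The tumors labelled RASSF1A had -3.22, -3.11 and -3.17. All 9 tumors with a MOAP-1 form were above all 3 vector tumors, and the RASSF1A tumors lay within the vector range. The log2 change against vector was 1.09 ± 0.14 (SE, n = 3, limma adjusted p = 0.000270) with MOAP-1, 1.06 ± 0.14 (adjusted p = 0.000185) with K264R and 0.73 ± 0.14 (adjusted p = 0.00543) with K278R. These comparisons share the 3 vector arrays. LAMA2 stayed called against vector with MOAP-1 in 15 of 16 alternative settings, the exception being normexp background subtraction, where its change was -0.18 while the median of all probes shifted by -0.53. It stayed called with K264R in 14 of 16 and with K278R in 13 of 16, where the change under normexp was -0.41.

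The vector levels of the laminin-binding chain ITGA6 at probe A_33_P3231447 were -0.79, -1.32 and -1.23, and those with MOAP-1 were -0.52, -0.19 and -0.53. The levels were -0.41, -0.46 and -0.83 with K264R, -0.88, -0.24 and -0.67 with K278R, and -1.40, -1.60 and -1.03 in RASSF1A tumors. The MOAP-1 tumors were above the vector tumors without overlap, by 0.70 ± 0.20 (SE, n = 3, limma adjusted p = 0.0197), and the changes of 0.55 with K264R and 0.52 with K278R missed the call. The other ITGA6 probe, A_23_P210176, read 0.52, 0.67 and 0.49 in vector tumors and 0.32, 0.28 and 0.18 with MOAP-1, a change of -0.30 ± 0.14 (adjusted p = 0.112). It read 1.15, 0.60 and 0.80 with K264R, 0.28, 0.59 and 0.65 with K278R, and 0.60, 0.40 and 0.53 in RASSF1A tumors. The call at the first probe was lost without MOAP-1 tumor 2 (0.59), without vector tumor 2 (0.60) and without vector tumor 3 (0.64).

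ITGA1, the alpha chain of a collagen receptor, was read by 1 dim probe that was well above background on 14 of the 15 arrays. Its levels were -6.11, -6.44 and -6.54 in vector tumors, -5.88, -5.54 and -5.65 with MOAP-1, -5.98, -5.85 and -5.97 with K264R, and -5.84, -5.70 and -5.77 with K278R. The RASSF1A tumors read -5.78, -5.30 and -6.13. Of the 12 tumors with another construct, 11 were above all vector tumors, and tumor 3 labelled RASSF1A lay just below vector tumor 1. The change was 0.67 ± 0.18 (SE, n = 3, limma adjusted p = 0.0121) with MOAP-1 and 0.59 ± 0.18 (adjusted p = 0.0315) with K278R. It was 0.43 with K264R and 0.63 with RASSF1A, neither called. The MOAP-1 call was lost without MOAP-1 tumor 2 (0.60) or vector tumor 3 (0.58, the latter just under the 1.5-fold limit). The K278R call was lost without any 1 of its 3 tumors, whose changes then ran from 0.56 to 0.63, and without vector tumor 2 (0.56) or vector tumor 3 (0.51). Of the other collagen-binding chains, ITGA2, ITGA10 and ITGA11 were called in none of the comparisons with vector, and their changes with MOAP-1 were 0.05, 0.01 and 0.27.

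LAMA4 had 4 kept probes, and they did not move alike. Probe A_33_P3391603 read -6.57, -5.93 and -6.35 in vector tumors, -5.56, -5.77 and -5.74 with MOAP-1, -5.86, -5.79 and -5.81 with K264R, -5.80, -5.27 and -5.86 with K278R, and -6.06, -5.76 and -6.00 with RASSF1A. It was called higher with MOAP-1 (0.59 ± 0.17, SE, n = 3, limma adjusted p = 0.0207) and with K278R (0.64 ± 0.17, adjusted p = 0.0222), though it was well above background on only 14 arrays. Probe A_33_P3391596 read 1.50, 1.63 and 1.46 in vector tumors, 1.01, 1.67 and 1.21 with MOAP-1, 0.89, 0.79 and 0.51 with K264R, 1.03, 2.14 and 1.45 with K278R, and 1.15, 0.84 and 1.59 with RASSF1A. At this probe only the K264R tumors lay clear of the vector tumors, and it was called lower there (-0.80 ± 0.26, SE, n = 3, adjusted p = 0.0297). Probe A_33_P3308749 read -3.39, -3.61 and -3.38 in vector tumors, -3.01, -3.12 and -3.08 with MOAP-1, -3.17, -3.12 and -3.22 with K264R, -3.12, -3.12 and -2.99 with K278R, and -3.68, -3.64 and -3.31 with RASSF1A. Its rises of 0.39, 0.29 and 0.38 with the MOAP-1 forms had adjusted p values of 0.0153, 0.0494 and 0.0247 but were under 1.5-fold. Probe A_33_P3308744 read -4.74, -4.52 and -4.59 in vector tumors, -4.49, -4.67 and -4.73 with MOAP-1, -4.55, -4.73 and -4.41 with K264R, -4.56, -4.51 and -4.47 with K278R, and -4.53, -4.53 and -4.67 with RASSF1A, with overlapping groups throughout. The call of A_33_P3391603 with MOAP-1 was lost without MOAP-1 tumor 1 (0.53), vector tumor 1 (0.45) or vector tumor 3 (0.56). Its call with K278R was lost without K278R tumor 2 (0.45), vector tumor 1 (0.50) or vector tumor 3 (0.61).

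ITGB7 read 1.28, 0.31 and 0.37 in vector tumors, 0.02, 0.01 and 0.16 with MOAP-1, 0.01, 0.20 and 0.17 with K264R, 0.32, 0.24 and 0.31 with K278R, and 0.25, 0.79 and 0.45 with RASSF1A. The call with MOAP-1 (-0.59 ± 0.21, SE, n = 3, limma adjusted p = 0.0496) rested on vector tumor 1, without which the change was -0.27 (adjusted p = 0.165). It was also lost when any MOAP-1 tumor was left out, and under 12 of 16 alternative settings in all.

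Beyond these and the LAMA4 probe A_33_P3308749, single probes of ITGA9, LAMC3, ITGB4, ITGB5 and LAMA5 passed the adjusted p with MOAP-1 but not the fold limit. ITGA9, which pairs with ITGB1 and binds tenascin, changed by -0.55 (limma adjusted p = 0.0169), and LAMC3, a gamma chain, changed by -0.56 at its brightest probe (adjusted p = 0.000974). ITGB4 of the hemidesmosome changed by -0.46 (adjusted p = 0.0243), and ITGB5, which pairs with the alpha V chain and binds vitronectin, changed by 0.49 (adjusted p = 0.0200). LAMA5, the widespread alpha chain of adult epithelium, changed by 0.30 (adjusted p = 0.0390). Without vector tumor 3, the ITGA9 change became -0.67 and the LAMC3 change -0.62, both then called, so that 1 member was called higher and 3 lower. ITGB1, the partner of most alpha chains, changed by 0.42 (adjusted p = 0.0856), and LAMA3 and LAMB3, chains of the epithelial laminin, by -0.02 and -0.40 (adjusted p = 0.956 and 0.164).

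**Figure D2:**
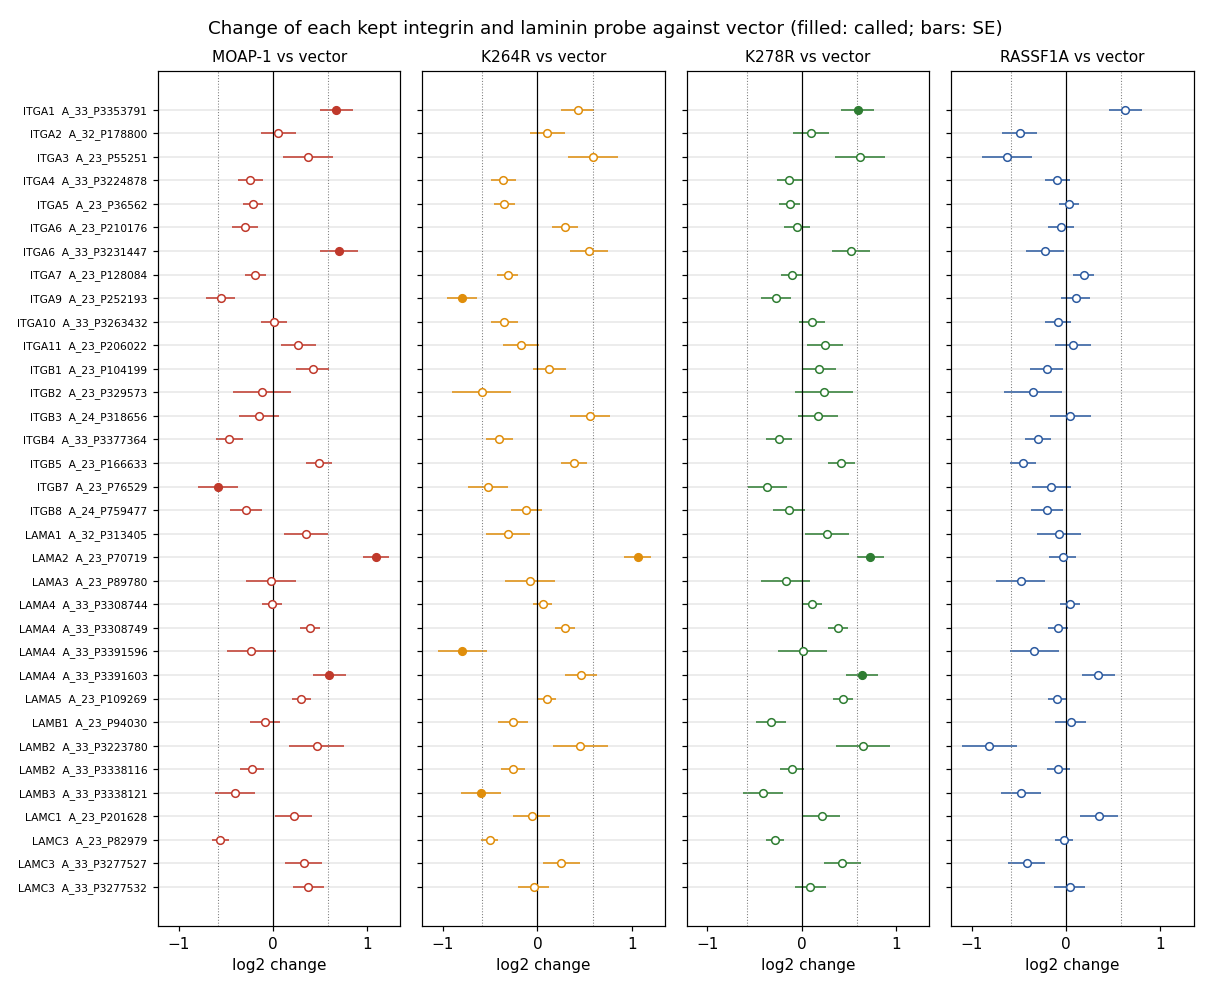
Log2 change of each of the 34 kept member probes against vector, 1 panel per construct, with SE as bars, filled points for called probes and dotted lines at 1.5-fold. Filled points number 5 for MOAP-1, 4 for K264R, 3 for K278R and 0 for RASSF1A.

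With K264R, 4 of 34 member probes were called (11.8%), against 19.5% of all kept probes. Higher was the LAMA2 probe already described, 1 of 34, where 9.25% of all probes were called higher. Lower were 3 of 34, ITGA9, LAMB3 and the bright LAMA4 probe, where 10.2% of all probes were called lower. ITGA9 read 1.50, 1.46 and 1.15 in vector tumors, 0.47, 0.75 and 0.50 with K264R, 0.56, 1.01 and 0.88 with MOAP-1, 0.93, 1.40 and 0.96 with K278R, and 1.38, 1.54 and 1.51 with RASSF1A. The K264R tumors were the farthest below vector, by 0.80 ± 0.15 (SE, n = 3, limma adjusted p = 0.00172). LAMB3, the beta chain of the epithelial laminin, read 3.57, 3.64 and 3.37 in vector tumors, 3.22, 2.94 and 2.63 with K264R, 3.30, 3.18 and 2.91 with MOAP-1, 3.50, 2.86 and 2.99 with K278R, and 3.36, 2.66 and 3.13 with RASSF1A. Its fall of 0.60 ± 0.21 with K264R (SE, n = 3, adjusted p = 0.0415) was lost without K264R tumor 2 (adjusted p = 0.0793) or 3 (0.167) or without vector tumor 1 (0.0995) or 2 (0.119). The LAMA4 call was lost without the same 4 tumors, with adjusted p from 0.0542 to 0.107. The median log2 change of the members was -0.069 against -0.049 over all kept probes.

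With K278R, 3 of 34 member probes were called (8.82%), against 10.9% of all kept probes. All 3 were higher, LAMA2, LAMA4 and ITGA1, where 7.71% of all probes were called higher, and 0 were lower, where 3.2% were. The median change of the members was 0.11 against 0.063 over all kept probes. The number called was 1 without K278R tumor 2 and 1 without vector tumor 3, LAMA2 in both, among 3552 and 3942 on the whole array. LAMA5 passed the adjusted p at 0.44 (limma adjusted p = 0.0113) but not the fold limit.

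The promoters of 3 called members are shown because LAMA2 and ITGA1 were called higher in the same MOAP-1 and K278R comparisons and LAMB3 lower with K264R. The RefSeq promoter table (build GRCh38.p14) matched 22 of the 30 member genes. Each line gives the 250 bases before the first listed start of the gene, 5′ to 3′ on the gene's strand. Capitals mark matches, on either strand, to 4 motif strings. The strings were TGACTCA for the AP-1 site, GGGCGG for the GC box, TATAAA for the TATA box and CACGTG for the E-box. Such strings were present in 4.2%, 42.6%, 10.7% and 6.35% of all 35116 promoter windows of this length.
LAMA2, chr6:128882888-128883137, plus strand: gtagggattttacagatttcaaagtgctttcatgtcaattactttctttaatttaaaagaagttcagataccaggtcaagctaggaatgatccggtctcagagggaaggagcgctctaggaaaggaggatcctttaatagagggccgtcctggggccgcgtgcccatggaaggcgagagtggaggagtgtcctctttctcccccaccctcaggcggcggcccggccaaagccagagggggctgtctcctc
ITGA1, chr5:52787666-52787915, plus strand: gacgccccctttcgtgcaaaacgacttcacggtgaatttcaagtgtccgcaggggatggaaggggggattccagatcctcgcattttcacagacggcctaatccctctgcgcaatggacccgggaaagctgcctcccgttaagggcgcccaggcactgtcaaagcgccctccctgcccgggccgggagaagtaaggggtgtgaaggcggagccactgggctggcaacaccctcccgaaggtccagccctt
LAMB3, chr1:209652426-209652675, minus strand: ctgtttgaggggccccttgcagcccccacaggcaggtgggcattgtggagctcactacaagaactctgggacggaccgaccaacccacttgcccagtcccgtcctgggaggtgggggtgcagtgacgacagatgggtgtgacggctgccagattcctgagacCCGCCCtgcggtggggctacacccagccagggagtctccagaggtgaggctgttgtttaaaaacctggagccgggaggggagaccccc
LAMB3 held 1 GC box match, which starts 88 bases before the gene start, and the LAMA2 and ITGA1 windows held 0 matches to the 4 strings. These matches describe letters in the windows and were not tied to the levels.

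The K264R and K278R forms were then compared with wild-type MOAP-1, which addresses whether the lysine changes alter the members. Against K264R, 0 of 34 member probes were called by limma, where 0.00327% of all kept probes were, a single probe, and 7 members had an unadjusted p below 0.05, as had 3325 of all 30585 kept probes. Against K278R, 0 of 34 were called, where 0% of all kept probes were, and 2 members had an unadjusted p below 0.05, as had 2821 of all kept probes. On the slide that held MOAP-1 tumor 2 and the K278R tumors, a fit with that 1 MOAP-1 array called 0 members and 1 probe of the whole array. The methods' t-test, unadjusted with the 1.5-fold limit, called 2 members lower with MOAP-1 than with K264R, ITGA6 at its bright probe (-0.59) and ITGB3 (-0.70), among 315 probes of the whole array, and 0 against K278R, where it called 144 of all. For LAMA2 the MOAP-1 minus K264R difference was 0.03 with a 95% interval from -0.28 to 0.33, and the MOAP-1 minus K278R difference was 0.37 with an interval from 0.06 to 0.67 (limma adjusted p = 0.479). These intervals still allow LAMA2 differences of up to 0.67 on the log2 scale, so equal action of the forms was not shown.

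In tumors labelled RASSF1A, 0 of 34 member probes were called against vector by limma, where 0% of all kept probes were, and 7 had an unadjusted p below 0.05, as had 3695 of all 30585 kept probes. By the methods' t-test, unadjusted, 0 members and 187 of all kept probes passed. The widest changes were -0.81 at 1 LAMB2 probe, -0.63 at ITGA3 and 0.63 at ITGA1. The LAMB2 probe, A_33_P3223780, read -1.88, -1.39 and -0.46 in RASSF1A tumors 1 to 3 and -0.31, -0.89 and -0.10 in vector tumors. RASSF1A tumor 3 lay among the vector tumors for this probe, and it was also the 1 RASSF1A array on the vector slide, while arrays 1 and 2 lay on a slide scanned on another day. Without tumor 3, 5 member probes were called, ITGB5 (-0.62), ITGA3 (-0.98), LAMB2 (-1.20) and LAMC3 (-0.66) lower and ITGA1 (0.82) higher, and 1408 probes of the whole array. On the shared slide alone, a fit with 1 RASSF1A array called 0 members and 24 of all 30585 kept probes, so few that 0 of 34 says nothing about the members. The part of slide and scan day in this difference was not tested.

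ITGB5 lay on opposite sides of vector with MOAP-1 and in the tumors labelled RASSF1A, and was called in neither comparison. It read -0.61, -0.64 and -0.49 in vector tumors and -0.23, 0.08 and -0.14 with MOAP-1. It read -0.17, -0.05 and -0.36 with K264R, -0.09, -0.27 and -0.12 with K278R, and -1.12, -1.28 and -0.71 with RASSF1A. All 9 tumors with a MOAP-1 form were thus above the vector tumors and all 3 RASSF1A tumors below. How common this pattern is among all kept probes was not counted. The change against vector was 0.49 with MOAP-1 (limma adjusted p = 0.0200) and -0.46 with RASSF1A (adjusted p = 0.341). The MOAP-1 minus RASSF1A difference of 0.94 ± 0.14 (SE, n = 3) is a description, since the gene was picked for this pattern. No slide held arrays of both constructs, so for this difference slide and construct cannot be told apart.

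Genes read by several kept probes showed how far the reading depends on the probe. There were 4 such genes, ITGA6, LAMA4, LAMB2 and LAMC3. With MOAP-1, the brightest probe of each of the 4 genes was lower than in vector tumors and the dimmest was higher. Of all 4324 genes with several kept probes, 33.5% had this split of signs with MOAP-1. It was seen in 2 of 4 members with K264R (29.6% of all), 3 of 4 with K278R (33.0%) and 2 of 4 with RASSF1A (16.2%). Brightest and dimmest probes changed by -0.30 and 0.70 for ITGA6, by -0.56 and 0.37 for LAMC3, by -0.23 and 0.59 for LAMA4 and by -0.22 and 0.46 for LAMB2. The signed change of the brightest probe lay below that of the dimmest in 4 of 4 genes with K264R and with K278R too, and in 2 of 4 with RASSF1A. For ITGA6 the change of the brighter probe minus that of the dimmer was -1.004 with MOAP-1, and the tumors did not overlap in it, while it was -0.26 with K264R, where they did. An exact permutation test of 3 against 3 tumors gave a two-sided p = 0.1 with MOAP-1, the smallest that 20 arrangements allow, and an adjusted p = 0.2 over the 44 such tests.

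**Figure D3:**
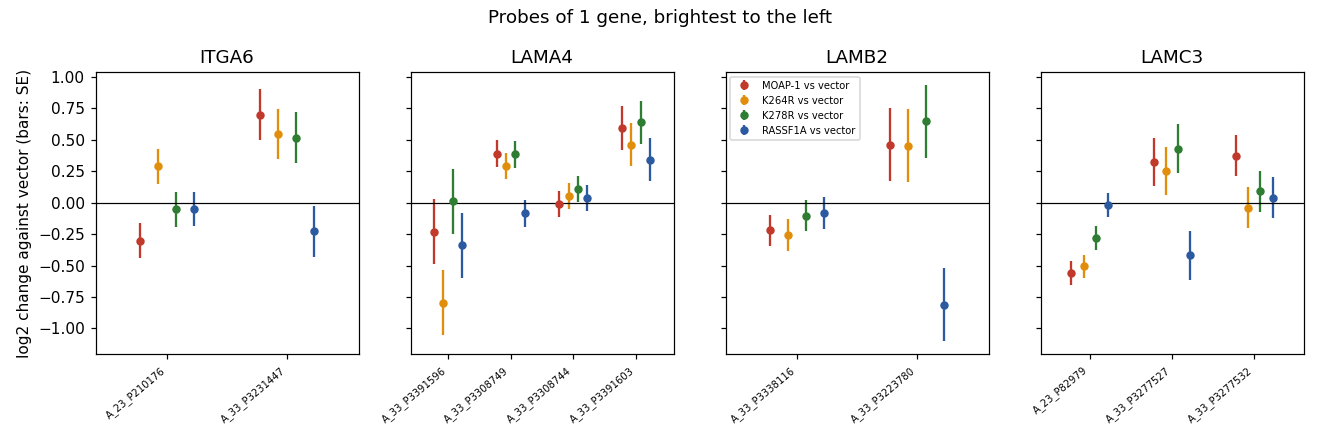
Log2 change against vector of each kept probe of the 4 member genes with several kept probes, brightest probe to the left, with SE as bars and 1 color per construct. In ITGA6 the brighter probe changed by -0.30 with MOAP-1 while the dimmer probe changed by 0.70.

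A signed change of the brightest probe below that of the dimmest was the more frequent ordering across the array with the MOAP-1 forms. Of 4324 genes with several kept probes, the signed change of the brightest lay below that of the dimmest in 64.8% with MOAP-1, 61.6% with K264R, 66.0% with K278R and 40.9% with RASSF1A. With MOAP-1 the median change was 0.11 in the dimmest of 4 equal bins of all kept probes and -0.14 in the brightest. The median of the members was 0.33 over the 8 in the dimmest bin and -0.35 over the 10 in the brightest. The part of signal brightness in the member calls was not tested.

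Markers of stromal fibroblasts, which in these tumors would be mouse cells read through cross-hybridization, also varied. Of 14 marker genes, 9 stood above background on every array, and LUM and COL6A3 on none. With MOAP-1, 3 of 13 kept marker probes were called higher (DCN, TAGLN and COL1A1), where 9.92% of all kept probes were. With K264R 0 were, against 9.25%, and with K278R 2 were (PDGFRB and TAGLN), against 7.71%. The summed level of a list is the log2 of the summed unlogged signals of each gene's brightest probe. It is therefore set mostly by the brightest genes. The summed level of the list ran from 2.25 to 4.60 in vector tumors, from 3.16 to 5.73 with MOAP-1, from 2.88 to 4.59 with K264R, from 4.11 to 5.66 with K278R and from 3.58 to 4.05 with RASSF1A, so every group overlapped the vector group. The median log2 change of these 13 probes was 1.80 with MOAP-1, where single probes reached 4.46, and 1.70 with K278R, against 0.44 with K264R and 0.59 with RASSF1A. Beside these medians, ITGA1 changed by 0.67 with MOAP-1, 0.59 with K278R, 0.43 with K264R and 0.63 with RASSF1A. In the same order, the dim LAMA4 probe changed by 0.59, 0.64, 0.46 and 0.34, and LAMA2 by 1.09, 0.73, 1.06 and -0.04. Endothelial markers showed a narrower difference. Their summed level ran from 1.83 to 1.90 in vector tumors, below every tumor with MOAP-1 (1.904 to 2.11), K278R (1.95 to 2.07) or RASSF1A (1.95 to 2.12), while the K264R tumors (1.81 to 2.34) overlapped the vector tumors. Of 9 kept endothelial probes, 1 was called higher with MOAP-1 and 1 with K278R, TIE1 in both, and 0 with K264R or RASSF1A. Of the 10 endothelial marker genes, 7 stood above background on every array. The summed level of leukocyte markers ran from 5.08 to 5.32 in vector tumors and from 4.96 to 5.22 with MOAP-1, where ITGB7 was called lower. It ran from 5.06 to 5.13 with K278R, overlapping vector. The K264R tumors (4.85 to 4.99) lay below all vector tumors and the RASSF1A tumors (5.34 to 5.62) above them. ITGB7 changed by -0.36 with K278R, -0.52 with K264R and -0.16 with RASSF1A, none called. The part of stroma, endothelium and leukocytes in the LAMA2, ITGA1, LAMA4 and ITGB7 calls was not tested.

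**Figure D4:**
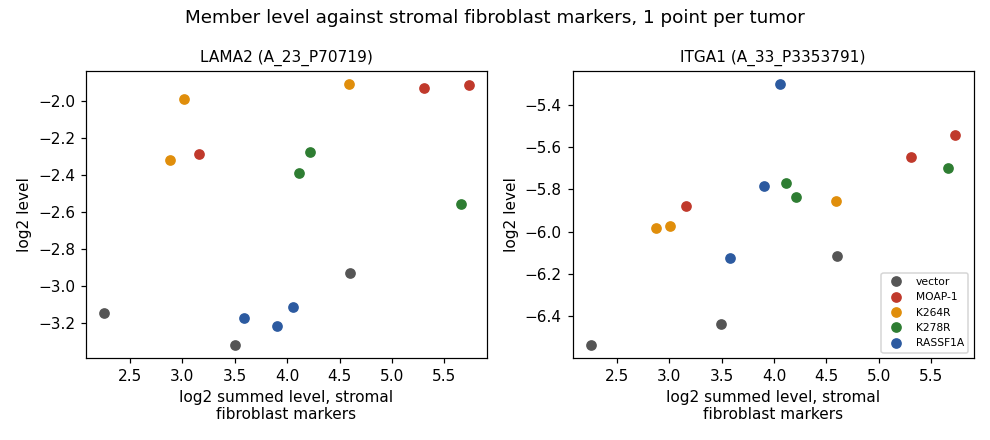
Log2 level of LAMA2 and of ITGA1 against the log2 summed level of the stromal fibroblast markers, 1 point per tumor, colored by construct. Summed levels ran from 2.25 to 4.60 in vector tumors and from 3.16 to 5.73 with MOAP-1, so the groups overlap along this axis.

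The median SD within a construct was 0.219 over the kept member probes and 0.180 over all kept probes, a description with no test. The spread was widest for ITGB2, the leukocyte beta chain (0.425), and narrowest for the brightest LAMC3 probe (0.0916). LAMA2 stood at 0.175.

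Genes that act with integrins were counted on the same scale. Of 30 kept probes for 22 adaptors and kinases at integrin tails, 6 were higher and 0 lower with MOAP-1 (20%, median change 0.15), 6 were higher and 1 lower with K264R (23.3%), and 3 were higher and 0 lower with K278R (10%). Of all kept probes, 16.6%, 19.5% and 10.9% were called either way, and 9.92%, 9.25% and 7.71% were called higher. The adaptor calls were thus mostly higher, beyond the share called higher with MOAP-1 and K264R, and this difference was not tested. Talin, TLN1, which links beta tails to actin, rose by 1.43 with MOAP-1, 0.99 with K264R and 1.49 with K278R (limma adjusted p = 0.00226, 0.0147 and 0.00446). The integrin-linked kinase ILK rose by 1.08 with MOAP-1 and by 0.98 with K278R. Of 14 probes for 8 hemidesmosome and laminin receptor genes, 3 were higher with MOAP-1 and 4 with K264R, among them the laminin receptor dystroglycan, DAG1, at 1.13 and 1.23, and 0 with K278R. These are 21.4%, 28.6% and 0% of the list, against 16.6%, 19.5% and 10.9% of all kept probes called either way. Called higher were 9.92%, 9.25% and 7.71% of all kept probes, and the difference was not tested. The median change of the 14 probes was 0.18 with MOAP-1, -0.03 with K264R, 0.29 with K278R and -0.13 with RASSF1A. The summed level of this list, set mostly by its brightest genes, ran from 6.87 to 6.95 in vector tumors. It lay below them at 6.62 to 6.63 with MOAP-1, 6.51 to 6.60 with K264R, 6.61 to 6.83 with K278R and 6.80 to 6.85 with RASSF1A. Of 16 probes for basement membrane and matrix ligands, 1 was lower with MOAP-1, 3 with K264R and 1 with K278R, where 6.69%, 10.2% and 3.2% of all kept probes were, and COL4A2, a chain of basement membrane collagen, was lower in each, by 0.74, 0.66 and 0.64. Of 7 probes for integrin alpha chains named by a letter, 0 were called with MOAP-1 or K278R and 1, ITGAD, was lower with K264R. None of these lists held a called probe in the tumors labelled RASSF1A, where 0% of all kept probes were called. That count therefore says nothing about the lists.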

How the data were processed

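HCT116 xenograft tumors were profiled on one-color Agilent arrays. The deposited scanner files hold spot intensity that the authors extracted with Agilent Feature Extraction (9.1 per the submitters' processing notes, 10.5.1.1 per the file headers). A deposited table holds log2 values normalized by the authors, whose centring is not stated, and 7 of its columns followed another array of the same construct, so it served only as an alternative. Control spots and spots with outlier flags were left out. The log2 processed signal minus the 75th percentile of each array was averaged per probe over 43118 spots, of which 0 were saturated, and 85.1 to 93.1% of spots per array were well above background. Gene names came from RefSeq through transcript records, for 25422 of 34127 probes.

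All 15 arrays were fitted by construct with limma 3.58.1 in R 4.3.3 (lmFit, contrasts.fit, eBayes, 10 residual degrees of freedom), with Benjamini-Hochberg adjustment over all kept probes, and the step was tested on simulated data. Values were given by tumor for up to 8 called member probes per comparison and for every kept probe of a gene whose probes differed in their call with MOAP-1, and others by ranges and counts. LAMC3, ITGB4, ITGB5, ITGB1, ITGA3, LAMA5 and LAMB2, and the genes named from the lists, were picked after their values were seen, and so were the brightness and probe comparisons and the MOAP-1 with RASSF1A contrast. Members and lists were chosen with earlier results of these data known. Alternatives were quantile scaling, normexp (offset 50, and without 16 spots more than 100 below their local background), other dim-probe filters, the authors' table, fits of 2 constructs, slide and replicate blocks, leaving out each tumor, and the methods' t-test. 1 gene is not reported here and is in no member count. The number of arrays limits the precision.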

Additional observations from a re-analysis of the deposited data

Results flagged for a closer look

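Member probes were singled out where all tumors of 1 construct lay above and all of another below every vector tumor. This held for ITGB5, with all 3 MOAP-1 forms above and the tumors labelled RASSF1A below. The share of all kept probes with this pattern was not counted, so the pattern does not set ITGB5 apart from the array. The ITGB5 difference from RASSF1A was 0.94 with MOAP-1, 0.84 with K264R and 0.87 with K278R, given with no test because the gene was picked for this pattern. Against vector, its changes were called with none of the 4 constructs. These differences share the 3 RASSF1A arrays, of which tumor 3 lay closest to vector, and the side of each construct was defined from the same 3 vector arrays.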

How the results depend on the processing

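Of the 12 member calls, 7 held under quantile scaling, 10 with the authors' table, 10 without the dim-probe filter, 9 in fits of 2 constructs and 11 with slide as a random block. In no comparison with a call did a slide hold arrays of both constructs. The block thus could not separate slide from construct, and its within-slide correlation was -0.075. Under normexp, 0 held, and the median of all probes shifted by -0.53 with MOAP-1, -0.31 with K264R and -0.46 with K278R. The directions turned for LAMA2 (-0.18 with MOAP-1, -0.41 with K278R), ITGA1 (-1.46 and -1.32) and LAMA4 A_33_P3391603 (-1.55 and -1.45), and LAMA2 was still 0.34 and 0.058 above that median. With 16 outlying spots kept out of the normexp fit (median shifts of -0.13, -0.26 and -0.059), 4 calls held, and ITGA1 (-0.12 with MOAP-1) and LAMA4 A_33_P3391603 (-0.23 with MOAP-1, -0.13 with K278R) were turned. The cause was not tested.

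With MOAP-1 against vector, quantile scaling called 3 members, normexp 0, normexp without outlying spots 2 (both higher), the fit over probes well above background on all arrays 3 and the adjusted t-test 1, LAMA2. The whole-array counts in the same order were 4729, 522, 2632, 4648 and 2627, against 5079 in the fit reported. The authors' table called 4, all higher, against 4 higher and 1 lower in the fit reported. With K264R against vector, normexp called 0 and the adjusted t-test 3, while normexp without outlying spots called 5, all lower, against 1 higher and 3 lower in the fit reported, and the authors' table called 3 higher and 2 lower. Here the whole-array counts in order were 914, 4324, 7908 and 5962, against 5949 in the fit reported. With K278R against vector, the count was 1 under quantile scaling, 0 under normexp, 0 without outlying spots, 5 without the dim-probe filter (4 higher, 1 lower), 1 over probes well above background on all arrays, 1 in the fit of 2 constructs and 0 by the adjusted t-test. The whole-array counts in this order were 2665, 1, 1326, 3266, 2945, 1171 and 0, against 3337 in the fit reported. Where the whole array held 1 or 0 calls, a count of 0 says nothing about the members. Against K264R, the unadjusted t-test called 2 members with MOAP-1, among 315 probes of the whole array. Leaving out 1 tumor gave 3 to 4 calls with MOAP-1, 3 to 5 with K264R, 1 to 2 with K278R and 0 to 5 with RASSF1A, where the 5 arose without RASSF1A tumor 3. Calls on the whole array then numbered 3762 to 5685 with MOAP-1 and 4896 to 6764 with K264R. They numbered 1687 to 3942 with K278R and 0 to 1408 with RASSF1A.

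Replicate numbers did not pair the tumors, since deviations of same-numbered tumors correlated between -0.255 and 0.361 and only 4 of 15 arrays correlated best with their own number. A replicate block called 4 members with MOAP-1, where ITGB7 was lost, 4 with K264R, 3 with K278R and 0 in the other comparisons, and changed no other member call. Of all kept probes it called 5250 with MOAP-1, 6047 with K264R, 3558 with K278R and at most 1 in the other comparisons. On this design, changes of dim probes such as ITGA1 are limited by their signal over background.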
